A study of Mus musculus with 12 samples.

Results

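The transcripts of 10 genes were followed in 12 mouse livers: 5 subunits of protein phosphatase 2A (PP2A; *Ppp2ca*, *Ppp2cb*, *Ppp2r1a*, *Ppp2r2a* and *Ppp2r2d*), 4 subunits of AMP-activated protein kinase (AMPK; *Prkaa1*, *Prkaa2*, *Prkab1* and *Prkag1*), and *Stk11*, which encodes the AMPK-activating kinase LKB1. They were taken by symbol from a table of 24532 genes, and all 10 were among the 14038 genes with enough counts to be tested. The study asked how the aryl hydrocarbon receptor (AhR) and alcohol act on AMPKα in hepatocytes, with the B regulatory subunit encoded by *Ppp2r2d* between them. Poly(A)-selected liver RNA was sequenced from 4 groups of 3 livers, all from male C57BL/6 mice carrying loxP sites around exon 2 of *Ahr*. Mice labelled *Ahr* HKO also carried Cre under the albumin promoter, which deletes the floxed exon in hepatocytes and leaves other liver cells with an intact gene, and littermates labelled WT had no Cre. From 10 to 12 weeks of age each genotype received a Lieber-DeCarli liquid diet for 5 weeks, either with ethanol at 36% of calories (EtOH) or an isocaloric control diet (con). The groups were therefore WT+con, WT+EtOH, *Ahr* HKO+con and *Ahr* HKO+EtOH, and the 3 livers of each were a random choice from a larger cohort.

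PP2A removes phosphate from serine and threonine. It is assembled from a catalytic C subunit (*Ppp2ca*, *Ppp2cb*), a scaffolding A subunit (*Ppp2r1a*) and a B subunit that directs it to substrates, and *Ppp2r2a* and *Ppp2r2d* encode B subunits of the B55 family. AMPK is the energy sensor that slows lipid synthesis and promotes fatty acid oxidation and autophagy in the liver. It has a catalytic α subunit (*Prkaa1*, α1; *Prkaa2*, α2) with a β (*Prkab1*, β1) and a γ subunit (*Prkag1*, γ1), it is switched on when LKB1 phosphorylates the activation loop of α, and phosphatases including PP2A reverse that step. RNA levels do not measure this phosphorylation.

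Because the genotype removes a DNA-binding receptor, the promoters of the members were searched for its core motif. RefSeq (GRCm38.p6, the mm10 build that the table uses) gave a promoter window for 8 of the 10 genes. *Ppp2cb* and *Ppp2r2a* had no window. For *Ppp2r2d*, *Prkab1* and *Stk11* the start site of the window lay inside the RefSeq gene model. Part of these windows was therefore within the gene. The motif GCGTG, on either strand, was looked for in the 250 bases upstream of each start site. It was found in *Ppp2ca* at 3 positions, *Stk11* at 2 and *Prkaa2* at 1, and in none of the 2 overlapping windows of *Ppp2r2d*, nor in those of *Ppp2r1a*, *Prkaa1*, *Prkab1* and *Prkag1*. Of all 32851 promoter windows searched the same way, 28.2% held it. The longer motif TNGCGTG, where N is any base and which contains the core, was in the *Ppp2ca* window and in 1347 of the 32851. Windows are shown for *Ppp2r2d*, the gene the study turned to, *Ppp2ca*, which had the most matches, and *Prkaa2*, which had the largest changes. They run 5′ to 3′ on the gene's own strand, with GCGTG or its reverse complement in capitals, and lie at chr7:138846109-138846358 (plus strand) for *Ppp2r2d*, chr11:52098574-52098823 (plus strand) for *Ppp2ca* and chr4:105109899-105110148 (minus strand) for *Prkaa2*.
Ppp2r2d: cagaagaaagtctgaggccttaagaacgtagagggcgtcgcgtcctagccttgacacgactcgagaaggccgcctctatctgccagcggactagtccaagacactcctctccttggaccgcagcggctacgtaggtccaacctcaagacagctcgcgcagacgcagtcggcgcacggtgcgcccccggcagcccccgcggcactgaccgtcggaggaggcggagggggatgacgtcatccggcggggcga
Ppp2ca: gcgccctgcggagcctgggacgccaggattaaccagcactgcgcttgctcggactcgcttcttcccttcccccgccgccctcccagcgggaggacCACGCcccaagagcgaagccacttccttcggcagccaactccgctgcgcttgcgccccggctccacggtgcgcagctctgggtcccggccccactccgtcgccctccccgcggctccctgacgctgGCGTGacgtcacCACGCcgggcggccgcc
Prkaa2: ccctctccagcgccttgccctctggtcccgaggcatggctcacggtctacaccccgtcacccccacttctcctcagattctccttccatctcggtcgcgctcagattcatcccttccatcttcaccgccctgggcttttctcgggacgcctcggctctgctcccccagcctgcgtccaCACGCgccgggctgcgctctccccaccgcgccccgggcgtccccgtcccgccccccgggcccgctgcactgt
The *Ppp2ca* matches began 155, 29 and 17 bases before the start site and the *Prkaa2* match 72 bases before it. A match is only a run of letters, and the absence of one in *Ppp2r2d* covers these 250 bases alone, since sequence further upstream was not searched.

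The libraries held 46306518 to 74336255 counts. Each member had between 432 and 8597 counts in every liver, so none rested on a handful of reads. *Ahr* itself stood at 20.1, 16.6 and 18.3 CPM (counts scaled to TMM-normalized library sizes) in WT+con, 30.5, 20.8 and 23.5 in WT+EtOH, 65.5, 41.3 and 63.3 in the livers labelled *Ahr* HKO+con, and 41.8, 32.1 and 24.7 in those labelled *Ahr* HKO+EtOH. Whole-gene counts cannot show the loss of exon 2, so the higher *Ahr* counts neither check nor contradict the labels. Known targets of AhR did not move one way between the genotypes. *Cyp1a2*, a hepatocyte target, was lower in *Ahr* HKO than in WT livers on both diets (log2 fold change −1.67, adjusted P = 0.0191, and −0.73, adjusted P = 0.0457). The first call was lost without WT+con liver 1 or *Ahr* HKO+con liver 2 (adjusted P up to 0.0607), and the second was kept in 1 of 6 fits without 1 liver (adjusted P up to 0.187). *Cyp1a1*, at no more than 1.67 CPM in any liver, was higher in *Ahr* HKO on the control diet (1.495, adjusted P = 0.0458, 1 of 6 such fits). *Nqo1* gave −0.56 (adjusted P = 0.249) on the control diet and −1.31 (adjusted P = 0.0599) on the ethanol diet. It passed in 2 comparisons, both of ethanol against control diet. Of the 7 tested genes of AhR and its targets, 3 were higher (*Ahr*, *Arnt* and *Cyp1a1*) and 1 lower in *Ahr* HKO on the control diet. Over all genes 15.3% were higher and 14.4% lower there. With ethanol in WT all 7 of these genes had a positive log2 fold change. There 3 passed, all higher (1 to 3 without 1 liver), where 4.24% of all genes were higher. With ethanol in *Ahr* HKO 2 passed higher and 2 lower, where 31.2% of all genes passed. All 6 hepatocyte markers examined, *Alb* among them, were present in every group.

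Per unit of transcript length, which allows genes to be compared, the catalytic subunit *Ppp2ca* was the most abundant member at 48.2 ± 0.97 FPKM (mean ± SD, n = 3) in WT+con livers. *Stk11* followed at 34.3 ± 0.73 FPKM, the scaffold *Ppp2r1a* at 26.6 ± 0.62 and *Prkag1* at 18.3 ± 1.16. *Ppp2cb* stood at 13.6 ± 0.48 FPKM, *Prkab1* at 11.8 ± 0.87, *Ppp2r2d* at 9.20 ± 0.43, *Prkaa2* at 5.18 ± 0.42, *Ppp2r2a* at 3.19 ± 0.16 and *Prkaa1* at 1.87 ± 0.21. Thus the AMPKα transcripts were the least abundant of the 4 AMPK subunits among the 10 genes, and *Ppp2r2d* was the more abundant of the B55 pair.

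**Figure D1:**
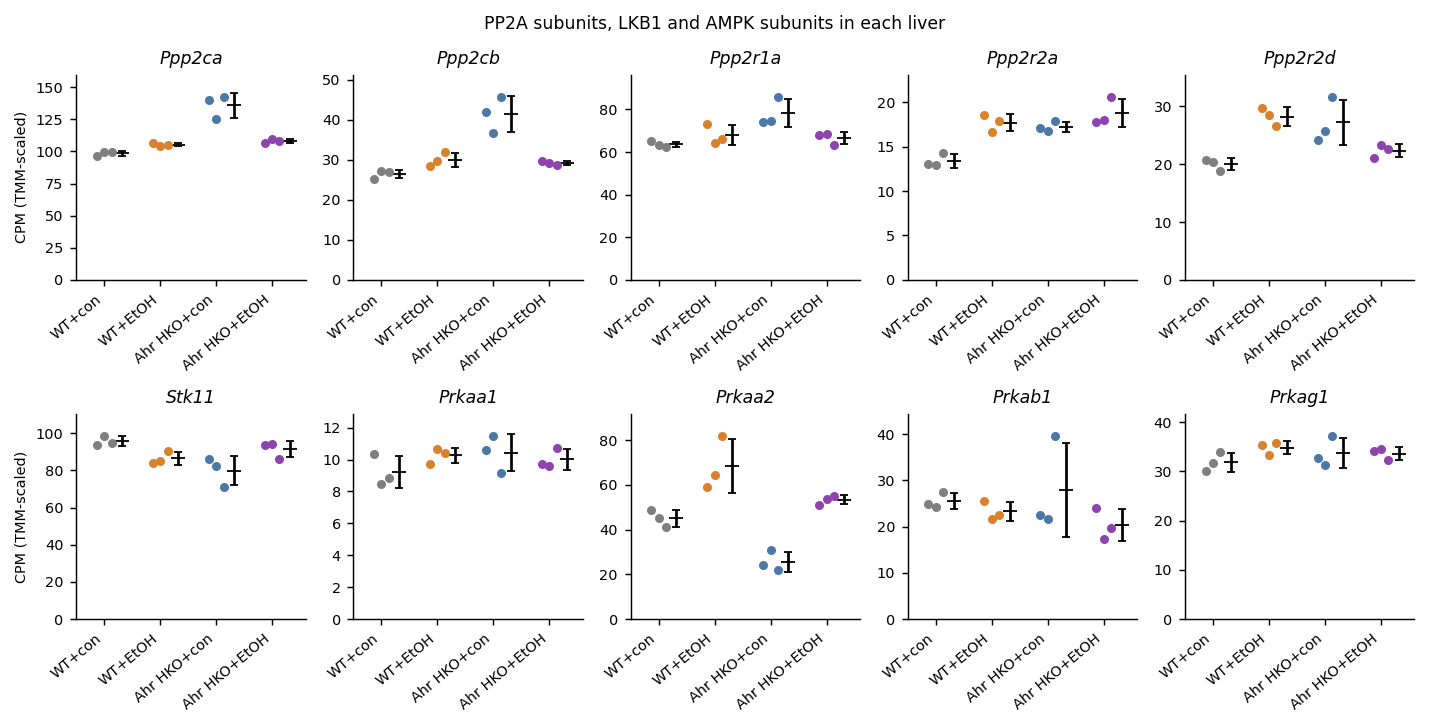
TMM-scaled CPM of the 10 genes (y axes, each from 0) in the 4 groups (x axes); points are single livers, and the bar beside them is the mean ± SD of 3. *Ppp2r2d* lay between 26.5 and 29.7 CPM in WT+EtOH against 18.9 to 20.8 in WT+con, and *Prkaa2* between 21.9 and 30.8 CPM in *Ahr* HKO+con, below every liver of the other groups.

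Counts of members that passed the test (edgeR quasi-likelihood test, Benjamini-Hochberg adjusted P under 0.05 over the 14038 genes) differed among the comparisons, as did the share of all genes that passed. With ethanol in WT livers 3 members passed, all higher, where 8.72% of all genes passed, 4.24% higher and 4.48% lower. Between the genotypes on the control diet 5 members passed, 4 higher and 1 lower in *Ahr* HKO, against 29.7% of all genes, 15.3% higher and 14.4% lower. On the ethanol diet no member passed between genotypes in edgeR, where 1.06% of all genes did, 0.684% higher and 0.378% lower. There 2 members had an unadjusted P under 0.05, and DESeq2 called 1, *Ppp2r2d*. With ethanol in *Ahr* HKO livers 3 members passed, 1 higher and 2 lower, against 31.2% of all genes, 16.1% being lower. The genotype by diet interaction, which is the ethanol change in *Ahr* HKO minus that in WT, passed for 3 members, all negative, against 22.3% of all genes, 11.2% positive and 11.1% negative.

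The share of members was therefore near that of all genes for ethanol in *Ahr* HKO, and the counts elsewhere are of a list of 10 only. Requiring a fold change above 1.5 as well left 1 member for ethanol in WT (6.58% of all genes), 2 between genotypes on the control diet (19.8%), none on the ethanol diet (1.03%), 1 for ethanol in *Ahr* HKO (22.0%) and 2 for the interaction (18.7%). The CPM of the groups did not overlap for 6 members with ethanol in WT, where 32.9% of all genes did not, for 7 between genotypes on the control diet (47.3%), for 2 on the ethanol diet (27.9%) and for 5 with ethanol in *Ahr* HKO (49.8%). Each group serves in 2 of the 4 comparisons, so they are not independent of each other.

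**Figure D2:**
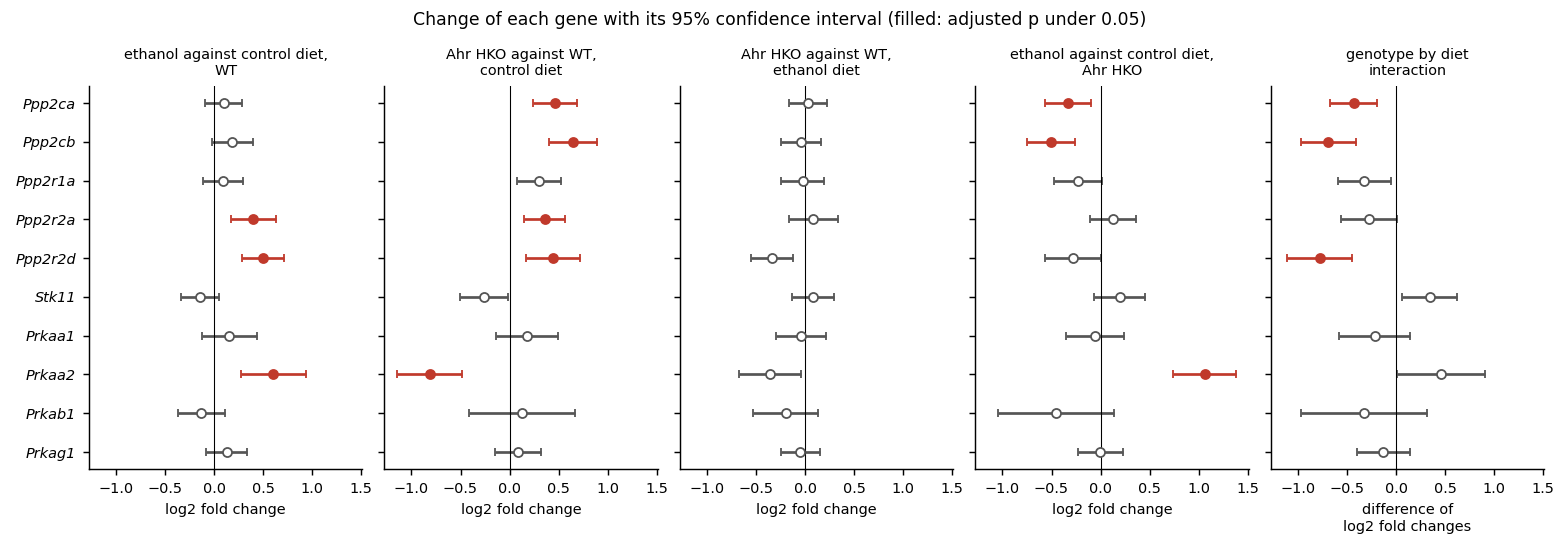
Log2 fold change of each gene (x axes; for the interaction, the difference of log2 fold changes) with its 95% confidence interval from the edgeR fit, in the 4 comparisons and the interaction; filled points passed at an adjusted P under 0.05. On the control diet the 5 PP2A genes all lie right of 0 and *Prkaa2* lies at −0.82, whereas on the ethanol diet no point is filled.

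*Ppp2r2d* (chromosome 7, 138846350 to 138883057, plus strand) was higher after ethanol in WT livers and was not higher after ethanol in *Ahr* HKO livers. It measured 20.8, 20.4 and 18.9 CPM in WT+con and 29.7, 28.5 and 26.5 in WT+EtOH. The 3 livers of each group did not overlap, and the log2 fold change was 0.49 ± 0.09 (SE), a rise of 1.41-fold (adjusted P = 0.0214). *Ahr* HKO+con livers read 24.2, 25.8 and 31.7 CPM, above all 3 WT+con livers (0.44 ± 0.12, adjusted P = 0.0287). *Ahr* HKO+EtOH livers read 21.1, 23.4 and 22.7 CPM, which lay below every *Ahr* HKO+con and every WT+EtOH liver. Against *Ahr* HKO+con the difference was −0.28 (95% CI −0.57 to 0.00012, adjusted P = 0.114), and without *Ahr* HKO+con liver 3 it was −0.16. Against WT+EtOH the difference was −0.34 (95% CI −0.55 to −0.12, unadjusted P = 0.0079, adjusted P = 0.117). The interaction was −0.78 ± 0.15 (adjusted P = 0.00499). In order of mean CPM the groups ran WT+con, *Ahr* HKO+EtOH, *Ahr* HKO+con and WT+EtOH, and only the last 2 overlapped.

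The ethanol rise of *Ppp2r2d* in WT kept its size but often not its call when 1 liver was left out. Fewer genes of any kind passed in such fits, 2.56% to 3.13% of all genes without 1 WT+con liver against 8.72% with all livers. Leaving out WT+con liver 1, 2 or 3 gave adjusted P values of 0.0632, 0.0778 and 0.0805, and leaving out WT+EtOH liver 2 gave 0.0585, with a log2 fold change between 0.45 and 0.54 in all 6 such fits. The control-diet difference between genotypes ran from 0.32 to 0.53 when 1 liver was left out. It lost its call without WT+con liver 1, 2 or 3 (adjusted P = 0.0641, 0.0784 and 0.0983) and without *Ahr* HKO+con liver 3 (0.0558), the liver with the highest value. The interaction passed in all 12 fits that left out 1 liver, between −0.86 and −0.66.

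*Ppp2r2a* (chromosome 14, 67014056 to 67072471, minus strand), the other B55 gene, rose by 0.40 ± 0.10 with ethanol in WT livers, from 13.1, 12.9 and 14.3 CPM to 18.6, 16.7 and 17.9 (adjusted P = 0.0484). It was likewise higher in *Ahr* HKO+con, at 17.1, 16.7 and 17.9 CPM (0.36 ± 0.09, adjusted P = 0.0218). Unlike *Ppp2r2d*, its level in *Ahr* HKO+EtOH livers, 17.7, 17.9 and 20.6 CPM, overlapped that in WT+EtOH and in *Ahr* HKO+con, and its interaction was −0.28 (95% CI −0.56 to 0.0054, adjusted P = 0.144). Of its 50-base stretches 6.31% also occur in the pseudogene *Gm19221*, against 1.62% of those of *Ppp2r2d* in *Gm7571*, so its counts are the less certain. WT+con was the low group for this gene and no other neighbouring groups were separated. The WT ethanol call was lost in each of the 6 fits without 1 liver (adjusted P of 0.141, 0.16 and 0.0921 without WT+con liver 1, 2 and 3, and 0.0899, 0.0695 and 0.103 without WT+EtOH liver 1, 2 and 3). The control-diet call was lost without WT+con liver 1 or 2 (0.0774 and 0.0922) and without *Ahr* HKO+con liver 1 or 3 (0.0521 and 0.0536).

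The share of *Ppp2r2d* in the summed FPKM of the B55 pair was 74.2 ± 1.8% in WT+con, 75.7 ± 1.3% in WT+EtOH and 75.4 ± 1.9% in *Ahr* HKO+con (SD, n = 3 each). It was 69.9, 71.8 and 68.4% in *Ahr* HKO+EtOH, below every liver of the other groups. The difference was −5.68 percentage points from WT+EtOH and −5.33 from *Ahr* HKO+con, each with a two-sided exact permutation P of 0.1 (0.15 after Benjamini-Hochberg adjustment over the 12 share comparisons), which is the smallest value 3 livers against 3 can give. A share does not depend on library scaling, so this separation was not set by it.

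**Figure D3:**
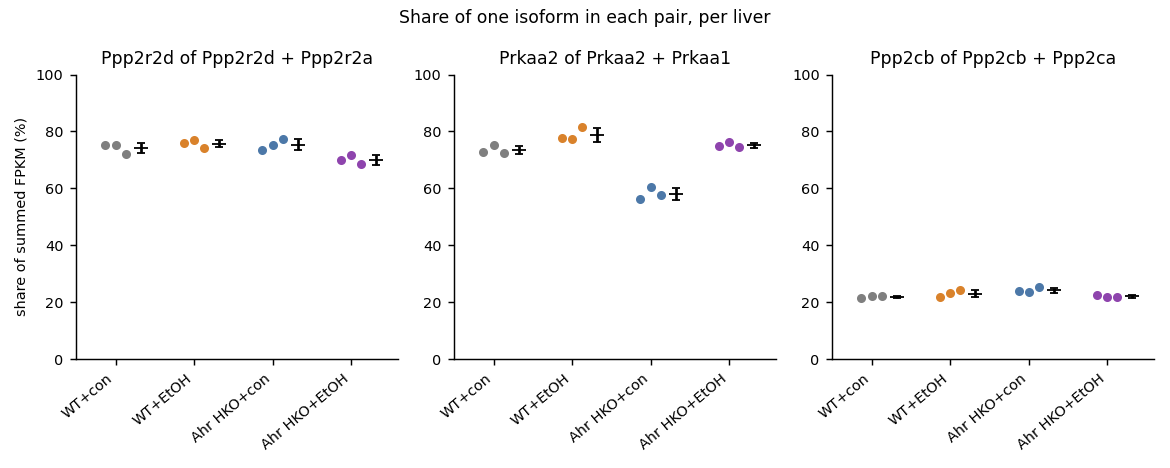
Share of 1 gene in the summed FPKM of its pair (y axes, %, from 0 to 100) in the 4 groups (x axes); points are single livers, and the bar beside them is the mean ± SD of 3. The *Prkaa2* share falls to 56.3 to 60.3% in *Ahr* HKO+con, whereas the *Ppp2cb* share stays between 21.6 and 25.2% in all 12 livers.

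Both genes of the catalytic subunit were highest in *Ahr* HKO livers on the control diet and lower in *Ahr* HKO livers given ethanol. *Ppp2ca* (chromosome 11, 52098824 to 52122749, plus strand) read 96.2, 99.8 and 99.9 CPM in WT+con, 107, 104 and 105 in WT+EtOH and 140, 125 and 143 in *Ahr* HKO+con (0.46 ± 0.10, adjusted P = 0.0113). *Ahr* HKO+EtOH livers, at 106, 109 and 108 CPM, were below the *Ahr* HKO+con livers by 0.34 on the log2 scale (adjusted P = 0.0402) and overlapped the WT+EtOH livers. That last fall passed in 1 of the 6 fits without 1 liver. Its adjusted P was 0.122 without *Ahr* HKO+con liver 1, 0.0857 without liver 3, and 0.0952, 0.0953 and 0.12 without *Ahr* HKO+EtOH liver 1, 2 and 3. Ethanol in WT gave 0.10 (95% CI −0.09 to 0.28, adjusted P = 0.49), although the livers of the 2 groups did not overlap.

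*Ppp2cb* (chromosome 8, 33599621 to 33619804, plus strand) had larger fold changes than its paralog in *Ahr* HKO, a difference that was not itself tested. It read 25.3, 27.3 and 26.9 CPM in WT+con, 28.5, 29.8 and 31.9 in WT+EtOH, 41.9, 36.7 and 45.8 in *Ahr* HKO+con and 29.7, 29.2 and 28.6 in *Ahr* HKO+EtOH. The genotype difference on the control diet was 0.65 ± 0.10 (adjusted P = 0.00502), a 1.57-fold excess, and the ethanol difference in *Ahr* HKO was −0.51 ± 0.10 (adjusted P = 0.0119). Both calls were kept without any 1 liver. The interaction was −0.69 ± 0.13 for *Ppp2cb* (adjusted P = 0.00437) and −0.43 ± 0.11 for *Ppp2ca* (adjusted P = 0.0183), and each passed in all 12 fits without 1 liver. *Ppp2ca* remained the main catalytic transcript: the *Ppp2cb* share of the pair was 22.0 ± 0.35% in WT+con and 24.2 ± 0.87% in *Ahr* HKO+con (exact permutation P = 0.1, adjusted 0.15). The 2 transcripts had no 50-base stretch in common. Of the 50-base stretches of *Ppp2ca*, 1.64% also occurred in transcripts of other genes, and noncoding genes lie on the opposite strand of *Ppp2ca*, *Prkaa1*, *Prkab1* and *Prkag1*, whose reads cannot be told apart where counting ignores strand. The GENCODE model of *Ppp2r2d* overlaps the protein-coding gene *Mapk1ip1* on the opposite strand, whereas its RefSeq model does not, so reads could be mixed there only under the GENCODE model.

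The scaffold *Ppp2r1a* was likewise highest in *Ahr* HKO+con, without passing the test, and its other 3 groups overlapped. It read 65.0, 63.3 and 62.5 CPM in WT+con and 74.2, 74.6 and 86.0 in *Ahr* HKO+con, which did not overlap (0.30, 95% CI 0.07 to 0.52, adjusted P = 0.0524). In DESeq2 this difference had an adjusted P of 0.0312. Its interaction was −0.32 (95% CI −0.59 to −0.05, adjusted P = 0.0809). Over the 5 PP2A genes the median log2 fold change was 0.44 between genotypes on the control diet, where the median of all genes was −0.0044, and −0.28 with ethanol in *Ahr* HKO, where it was −0.02. On the ethanol diet the WT and *Ahr* HKO livers overlapped for each of the 5 except *Ppp2r2d*.

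*Prkaa2* (chromosome 4, 105029649 to 105109898, minus strand), the main AMPKα transcript of these livers, had the largest fold change of the 10 genes in each of the 4 comparisons of group pairs. It measured 48.6, 45.3 and 41.1 CPM in WT+con, 59.1, 64.3 and 82.0 in WT+EtOH, 24.0, 30.8 and 21.9 in *Ahr* HKO+con, and 51.2, 53.9 and 55.2 in *Ahr* HKO+EtOH. No neighbouring groups overlapped in the order *Ahr* HKO+con, WT+con, *Ahr* HKO+EtOH and WT+EtOH. *Ahr* HKO livers on the control diet had 0.57 of the WT level (−0.82 ± 0.14, adjusted P = 0.00649), and ethanol raised it 2.09-fold in *Ahr* HKO (1.06 ± 0.14, adjusted P = 0.00305). These 2 differences passed in all 6 fits without 1 liver.

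With ethanol in WT livers *Prkaa2* rose by 0.60 ± 0.14 (adjusted P = 0.041). That call was lost without WT+con liver 1, 2 or 3 (adjusted P = 0.0927, 0.127 and 0.131) and without WT+EtOH liver 2 or 3 (0.076 and 0.0689). The WT+EtOH livers spread widely, with liver 3 at 82.0 CPM. Between genotypes on the ethanol diet the difference was −0.36 (95% CI −0.67 to −0.04, adjusted P = 0.196), although the 3 livers of each group did not overlap, and without WT+EtOH liver 3 it was −0.21. The ethanol changes in the 2 genotypes, both upward, differed by 0.46 (95% CI 0.01 to 0.90, adjusted P = 0.129), and this interaction passed without WT+EtOH liver 3 (adjusted P = 0.0424) or without *Ahr* HKO+con liver 2 (0.0392).

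*Prkaa1*, encoding α1, was low and even. Its 12 livers lay between 8.44 and 11.5 CPM and all neighbouring groups overlapped. No comparison of it passed, and its log2 fold changes ran from −0.06 to 0.18, with an interaction of −0.22 (95% CI −0.58 to 0.15). The *Prkaa2* share of the α pair was therefore 73.5 ± 1.5% in WT+con, 78.9 ± 2.45% in WT+EtOH, 58.1 ± 2.1% in *Ahr* HKO+con and 75.2 ± 0.89% in *Ahr* HKO+EtOH. The groups were separated in each of the 4 comparisons, each with an exact permutation P of 0.1 (adjusted 0.15), the largest gap being the 17.1 percentage points by which *Ahr* HKO+EtOH exceeded *Ahr* HKO+con.

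The remaining AMPK subunits and LKB1 did not pass in any comparison. *Prkag1* ranged from 30.0 to 37.2 CPM over the 12 livers. *Prkab1* read 22.6 and 21.6 CPM in *Ahr* HKO+con livers 1 and 2 and 39.6 in liver 3, and its genotype difference on the control diet was 0.13 with all livers and −0.21 without liver 3. Its confidence interval in that comparison, −0.41 to 0.67, was the widest of the 10 genes. *Stk11* read 93.4, 98.5 and 94.7 CPM in WT+con and 86.2, 82.1 and 70.9 in *Ahr* HKO+con, which did not overlap (−0.26, 95% CI −0.50 to −0.02, adjusted P = 0.0998). Its interaction was 0.34 (95% CI 0.06 to 0.62, adjusted P = 0.0748 in edgeR and 0.0262 in DESeq2). The *Stk11* gene model overlaps the end of *Cbarp* on the opposite strand by 229 bases, and the strand setting of the authors' counting is not given in the sources used here.

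Other PP2A subunits did not move as one. Of 14 listed, 12 were tested (*Ppp2r2b* and *Ppp2r2c* were too low), of which 1 rose and 3 fell in *Ahr* HKO on the control diet, and 3 rose and 1 fell with ethanol in *Ahr* HKO. These counts were near the shares of all genes that passed, 29.7% and 31.2%. For the lists below as well, 8.72% of all genes passed with ethanol in WT, 1.06% between genotypes on the ethanol diet and 22.3% for the interaction. The B56α gene *Ppp2r5a*, with 44.5 ± 1.83 FPKM in WT+con the most abundant of them, was 149, 150 and 137 CPM in WT+con and 67.8, 80.2 and 74.2 in *Ahr* HKO+con (−0.97 ± 0.10, adjusted P = 0.00137). It rose by 0.96 ± 0.15 with ethanol in *Ahr* HKO (adjusted P = 0.00587). *Ppp2r3a*, encoding a B″ subunit, fell by 0.89 on the control diet (adjusted P = 0.0117) and rose by 0.87 with ethanol in *Ahr* HKO (adjusted P = 0.0139). *Ppp2r5d* (B56δ) was lower by a log2 difference of −0.31 (adjusted P = 0.0239) and then higher by 0.51 (adjusted P = 0.00686). *Ppp2r5c* (B56γ) rose by 0.43 with ethanol in WT (adjusted P = 0.0274), and its interaction was −0.37 (adjusted P = 0.0357). The *Ppp2r5d* fall on the control diet and the *Ppp2r5c* rise each passed in 1 of the 6 fits without 1 liver (adjusted P up to 0.0843 and 0.101). On the ethanol diet none of the 12 passed between genotypes, with log2 fold changes from −0.25 to 1.21.

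Among 12 regulators of PP2A, *Arpp19*, whose phosphorylated product inhibits PP2A-B55, rose with ethanol by 1.22 ± 0.13 in WT (adjusted P = 0.00363) and by 0.83 ± 0.08 in *Ahr* HKO (adjusted P = 0.00172). *Set*, encoding an inhibitor of the catalytic subunit, rose by 0.50 with ethanol in WT (adjusted P = 0.0357, passing in 1 of 6 fits without 1 liver) and by 0.54 in *Ahr* HKO on the control diet (adjusted P = 0.0148, 4 of 6). *Anp32a*, encoding another inhibitor, fell by 0.92 in *Ahr* HKO on the control diet (adjusted P = 0.0026) and rose by 0.75 with ethanol there (adjusted P = 0.0146). Of the 12, 2 rose and none fell with ethanol in each genotype, 2 rose and 2 fell between genotypes on the control diet, and none passed on the ethanol diet. The shares of all genes were 8.72% with ethanol in WT, 31.2% with ethanol in *Ahr* HKO and 29.7% between genotypes on the control diet.

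Genes that act beside LKB1 and AMPK were mixed. Of all genes, 29.7% passed between genotypes on the control diet, 14.4% being lower, and 31.2% passed with ethanol in *Ahr* HKO. Of 7 LKB1 partners and other AMPK kinases, *Cab39*, which encodes the MO25α scaffold of LKB1, was higher by 0.52 in *Ahr* HKO on the control diet (adjusted P = 0.00518), whereas the pseudokinase gene *Stradb* was lower (−0.44, adjusted P = 0.0117). With ethanol in *Ahr* HKO *Cab39* fell by 0.33 (adjusted P = 0.0339), and *Stradb* rose by 0.28 (adjusted P = 0.0468), each passing in 1 of 6 fits without 1 liver. Of the 2 further AMPK subunit genes tested, *Prkag2* did not pass in any comparison and 1, *Prkab2*, named after its values were seen, had an interaction of −1.01 (adjusted P = 0.0404). Of 6 AMPK regulators, 3 were lower and none higher in *Ahr* HKO on the control diet (1 to 3 without 1 liver), with a median log2 fold change of −0.44, and 1 was lower with ethanol in WT. Among them *Sesn3*, a sestrin, fell by 1.14 with ethanol in WT (adjusted P = 0.0208, passing in 3 of 6 such fits) and by 1.22 in *Ahr* HKO on the control diet (adjusted P = 0.0169, 5 of 6), and *Flcn* did not pass in any comparison. Of 6 PP2C phosphatases 1, *Ppm1a*, rose with ethanol in *Ahr* HKO (0.36, adjusted P = 0.0362), a call kept in 1 of 6 fits without 1 liver. Another of the 6 was higher in *Ahr* HKO on the control diet (0 to 1 without 1 liver).

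Of 11 tested AMPK-related kinases, which LKB1 also activates, 5 rose and none fell in *Ahr* HKO on the control diet. There 15.3% of all genes were higher and 14.4% lower. *Mark3* rose by 0.46 (adjusted P = 0.00798), *Sik3* by 0.48 (adjusted P = 0.0163), *Sik1* by 1.03 (adjusted P = 0.0243) and *Mark1* by 0.95 (adjusted P = 0.0323). The call of *Mark3* was kept in all 6 fits without 1 liver, those of *Sik3* and *Sik1* in 3 and that of *Mark1* in 1, and the list's count was 1 to 3 in those fits and 2 to 5 under the other settings. *Sik1* also rose with ethanol in WT (1.25, adjusted P = 0.0351, passing in 2 of 6 such fits), and *Sik3* fell with ethanol in *Ahr* HKO (−0.49, adjusted P = 0.0169, 3 of 6).

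Transcripts of 18 AMPK substrates and effectors were counted as well. In *Ahr* HKO on the control diet 7 fell and none rose, with a median log2 fold change of −0.25. Of all genes 14.4% were lower and 15.3% higher there. *Srebf1*, the lipogenic transcription factor gene, fell by 2.05 ± 0.13 (adjusted P = 0.000614), *Gys2*, the liver glycogen synthase, by 1.27 ± 0.15 (adjusted P = 0.00196) and *Eef2k* by 1.18 ± 0.15 (adjusted P = 0.00215). With ethanol in *Ahr* HKO 7 rose and none fell, where 31.2% of all genes passed and 48.2% of the passing genes were higher. *Srebf1* rose by 1.65 ± 0.43 (adjusted P = 0.0278), *Gys2* by 1.15 ± 0.27 (adjusted P = 0.0187), *Tsc2* by 0.36 (adjusted P = 0.0206), and *Ppargc1a*, the coactivator of mitochondrial biogenesis, by 1.51 ± 0.15 (adjusted P = 0.00168). Of these, *Ppargc1a* passed in all 6 fits without 1 liver, *Gys2* in 4, *Srebf1* in 3 and *Tsc2* in 2.

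With ethanol in WT 1 of the 18 rose, *Ppargc1a* (0.59, adjusted P = 0.0475), and 3 fell, *Pfkfb1* (−1.56, adjusted P = 0.00598), *Srebf1* (−1.27, adjusted P = 0.0256) and *Eef2k* (−0.50, adjusted P = 0.0322). Over all genes 4.24% were higher and 4.48% lower there. Without 1 liver, *Pfkfb1* passed in all 6 fits, *Srebf1* in 2, and *Ppargc1a* and *Eef2k* in none. The interaction was positive for 9 and negative for none, with a median of 0.65 against −0.03 over all genes, and *Srebf1* led at 2.92 ± 0.56 (adjusted P = 0.00487). Over all genes 11.2% passed with a positive interaction and 11.1% with a negative one. On the ethanol diet 1 gene, *Pfkfb1*, which makes the enzyme for fructose 2,6-bisphosphate turnover, was higher in *Ahr* HKO (1.55, adjusted P = 0.0379, passing in 2 of 6 fits without 1 liver). There 0.684% of all genes were higher. Over the list, leaving out 1 liver gave 4 to 6 lower genes on the control diet, 3 to 5 higher ones with ethanol in *Ahr* HKO and 8 to 9 with a positive interaction. Limma on FPKM without quantile normalization gave 5 positive and 1 negative interactions, and over all other settings the lower genes on the control diet numbered 4 to 9. AMPK acts on the proteins of many of these genes, which RNA counts do not show.

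**Figure D4:**
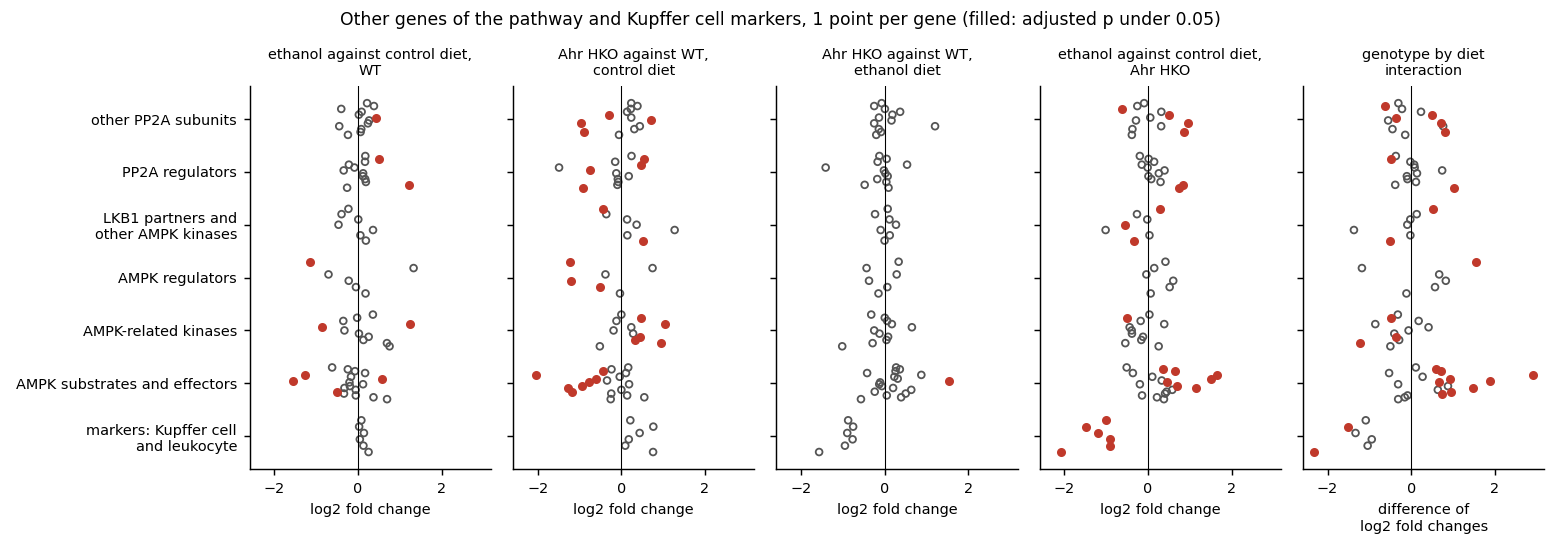
Log2 fold change (x axes; for the interaction, the difference of log2 fold changes) of the tested genes of 6 pathway lists and of the Kupffer cell and leukocyte markers (rows), 1 point per gene; filled points passed at an adjusted P under 0.05. Of the AMPK substrates 7 filled points lie left of 0 in *Ahr* HKO on the control diet and 7 lie right of 0 with ethanol in *Ahr* HKO, where the 6 markers all lie left of 0.

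Markers of other liver cells moved with some of these differences. With ethanol in *Ahr* HKO 16.1% of all genes were lower. All 6 Kupffer cell and leukocyte markers, among them *Clec4f* and *Adgre1*, fell there, as *Ppp2ca* and *Ppp2cb* did, and 2 to 6 of the markers did so when 1 liver was left out. Their summed level was 138 to 164 CPM in *Ahr* HKO+EtOH, 192 to 441 in *Ahr* HKO+con, 221 to 275 in WT+con and 178 to 445 in WT+EtOH, and none was at 0. All 6 had a negative difference between genotypes on the ethanol diet as well, from −1.57 to −0.75, of which none passed. Between genotypes on the control diet, where 4 PP2A genes were higher, all 6 were positive, from 0.09 to 0.77, and none passed with all livers, but up to 4 did when 1 liver was left out. Of 6 endothelial markers 3 fell with ethanol in *Ahr* HKO and 1 was higher in *Ahr* HKO on the control diet, where 15.3% of all genes were higher. The interaction, negative for *Ppp2r2d*, *Ppp2cb* and *Ppp2ca*, was also negative for all 6 Kupffer cell and leukocyte markers. It ran from −2.33 to −0.95, and 2 passed (0 to 5 without 1 liver). For the 6 endothelial markers it ran from −1.75 to −0.07, and 1 passed. Of 6 hepatocyte markers 4 had a positive interaction, and 2 passed. Over all genes 22.3% passed. With ethanol in WT, where *Ppp2r2d*, *Ppp2r2a* and *Prkaa2* rose, 2 of 6 stellate cell markers were higher (0 to 1 without 1 liver), and their summed level was 269 to 317 CPM against 192 to 250, which did not overlap. In that comparison 4.24% of all genes were higher, and the CPM of the groups did not overlap for 32.9%. Of 5 tested cholangiocyte markers 1 was higher in *Ahr* HKO on the control diet and 1 fell with ethanol in *Ahr* HKO, and their sum in *Ahr* HKO+con ran from 44.5 to 476 CPM. In *Ahr* HKO+con, liver 3 had the lowest Kupffer cell and leukocyte sum of its group, 192 CPM. It also had the highest *Ppp2r2d*, *Ppp2ca*, *Ppp2cb*, *Ppp2r1a* and *Prkab1* of all 12 livers. Its hepatocyte marker sum was 114107 CPM against 72186 and 71559 in livers 1 and 2. The part of these markers in the results above was not tested. In whole liver, fewer cells of a type and less RNA per cell cannot be told apart.

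Across the 12 livers, the genes whose log2 CPM was most like that of *Ppp2r2d* among 9212 genes with a mean of at least 5 CPM were *Naa50* (Pearson r = 0.941), *Selt* (0.928), *Dnaja2* (0.925), *Lepr* (0.924) and *Serbp1* (0.917). *Lepr*, the leptin receptor gene, shared the order of the groups but varied much more, with mean levels of 3.08 CPM in WT+con, 49.5 in WT+EtOH, 19.1 in *Ahr* HKO+con and 7.88 in *Ahr* HKO+EtOH. For *Prkaa2* they were *Gclm* (r = 0.974), *Stim2* (0.963), *Nectin3* (0.962), *Necab1* (0.96) and *Fkbp3* (0.955). *Gclm*, encoding the modifier subunit of the glutathione synthesis enzyme, went from 64.6 CPM in *Ahr* HKO+con to 97.6 in WT+con, 101 in *Ahr* HKO+EtOH and 120 in WT+EtOH. These values were picked as the highest of many and describe the livers only.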

How the data were processed

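The authors deposited, for each of 12 libraries, raw read counts, FPKM and TPM per gene, made from reads on mm10. The submitters' processing notes name FastQC 0.11.7, Trimmomatic 0.38, HISAT2 2.1.0, Bowtie2 2.3.4.1 and StringTie 1.3.4d. Libraries were poly(A)-selected with a stranded kit. The counting options are not given in the sources used here. The table held no comparisons by the authors. The deposited counts were filtered with filterByExpr (14038 of 24532 genes), scaled by TMM over all libraries and tested with the quasi-likelihood test of edgeR 4.0.16 in R 4.3.3, each pair of groups on its own 6 libraries and the interaction on all 12. P values were adjusted by Benjamini-Hochberg over all tested genes and called under 0.05 with no minimum fold change. Standard errors are the log2 fold change divided by the square root of F. The method was tested on simulated counts. Shares used the deposited FPKM, with two-sided exact permutation tests in scipy 1.17.1. The deposited TPM, DESeq2 1.42.0, limma 3.58.1 and other settings served as alternatives. The labels number 3 livers per group. The edgeR P values weigh a difference between groups against the spread between these livers. No library was left out. Genes beyond the members were named by rule: from each list, those passing in at least 2 of 5 comparisons (at most 6, smallest adjusted P first), the list's gene with the highest mean FPKM, and *Ppp2r5c*, *Ppp2r5d*, *Ahr*, *Cyp1a1* and *Cyp1a2*. *Clec4f*, *Adgre1* and *Alb* stand as examples of marker lists. The members and lists were chosen with earlier results of these data known. Libraries of the same group correlated at 0.969 to 0.98 (log2 CPM), and no 2 were identical. Counting error is small at this depth, so precision is set by 3 animals per group.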

Additional observations from a re-analysis of the deposited data

Results flagged for a closer look

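The genotype by diet interaction is the ethanol change in *Ahr* HKO livers minus that in WT livers. It passed the edgeR test (adjusted P under 0.05) for 3 members and for 20 of the other genes named by rule. A passing interaction marks a diet effect that differed between genotypes. Most genes named by rule were chosen because they passed in at least 2 comparisons, and the interaction was among these comparisons. The count of 20 was therefore largely set by that choice, and over all tested genes 22.3% passed. Among the members the interaction was −0.78 for *Ppp2r2d*, −0.69 for *Ppp2cb* and −0.43 for *Ppp2ca*, on the log2 scale. It was positive for the PP2A subunits *Ppp2r3a* (0.80), *Ppp2r5a* (0.72) and *Ppp2r5d* (0.49) and negative for *Ppp2r5c* (−0.37). The PP2A inhibitors differed in sign, with *Anp32a* at 1.02 and *Set* at −0.49. Around LKB1 it was −0.52 for *Cab39*, 0.51 for *Stradb*, −1.23 for *Mark1*, −0.37 for *Mark3* and −0.47 for *Sik3*. Every AMPK substrate or regulator named here with a passing interaction had a positive one: *Srebf1* (2.92), *Pfkfb1* (1.89), *Sesn3* (1.56), *Gys2* (1.47), *Eef2k* (0.94), *Ppargc1a* (0.93) and *Tsc2* (0.60). These genes were named by the same rule. Over the full list of 18 substrates and effectors, 9 passed with a positive interaction and 0 with a negative one. For the 6 regulators these counts were 1 and 0. The AMPK subunit *Prkab2*, named after its values were seen, passed as well (−1.01). *Ahr* (−1.23) and its partner *Arnt* (−0.67) had negative values. With 3 livers a group, no test for a liver far from the others was run.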

How the results depend on the processing

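The number of members called follows for settings that moved it by over 1.5 times and for the fits that left out 1 liver. With ethanol in WT, where 3 were called, 1 was called by limma on quantile-normalized log2(FPKM + 1), 1 when a fold change above 1.5 was also required, and 0 to 2 when 1 liver was left out. Between genotypes on the control diet, where 5 were called, the fold change rule left 2 and leaving out 1 liver 3 to 5. With ethanol given to both, where none was called, DESeq2 called 1 and limma on log2(FPKM + 1) or log2(FPKM + 0.1) without quantile normalization 1 each, all *Ppp2r2d*, and leaving out 1 liver 0. With ethanol in *Ahr* HKO, where 3 were called, the fold change rule left 1, and leaving out 1 liver 2 to 3. For the interaction, with 3 called, DESeq2 called 5 and unquantiled limma 6 with either pseudocount, and leaving out 1 liver 3 to 4. The FPKM values without quantile normalization shifted the median of all genes, by 0.16 with ethanol in WT, −0.21 between genotypes on the ethanol diet and −0.24 for the interaction at log2(FPKM + 0.1), and the higher share of calls to 79.4%, 17.4% and 23.5%, from 48.6%, 64.4% and 50.2%. Relative to that shift *Ppp2r2d* stood at 0.50, −0.34 and −0.77. Upper-quartile scaling moved the higher share between genotypes on the control diet from 51.6% to 42.5%. DESeq2 called 2335 genes with ethanol in WT and 1511 between genotypes on the ethanol diet, against 1224 and 149, and leaving out 1 liver gave 360 to 1011 and 10 to 193.

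With the replicate number as a block, the members called were 0 with ethanol in WT, 3 and 0 between genotypes without and with ethanol, 2 with ethanol in *Ahr* HKO and 3 for the interaction. Over 12 same-number pairs of livers the correlation of their deviations from the group mean ran from −0.09 to 0.18, and 2 were over 0.1. Both were between genotypes given ethanol, at 0.18 for number 1 and 0.13 for number 2, with −0.01 for number 3. In that comparison the block gave 247 called genes against 149 without it. The labels do not say that equal numbers pair livers, and whether they do was not tested.

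Signs changed for uncalled members near 0. Without quantile normalization at pseudocounts of 1 and 0.1, these were *Prkab1* with ethanol in WT (0.033 and 0.035) and, between genotypes given ethanol, *Ppp2ca* (−0.18 and −0.19), *Ppp2r2a* (−0.11 and −0.14) and *Stk11* (−0.13 in both). There *Ppp2ca* was −0.014 under upper-quartile scaling and −0.047 in quantile limma, where *Prkaa1* was 0.0085 and, with ethanol in *Ahr* HKO, 0.028. In the last comparison *Prkag1* was 0.0070 in DESeq2 and 0.0024 under upper-quartile scaling. Leaving out 1 liver, values ran for *Prkab1* from −0.21 to 0.28 between genotypes on the control diet and from −0.48 to 0.013 for the interaction. Between genotypes given ethanol they ran for *Ppp2cb* from −0.080 to 0.0028, *Ppp2r1a* from −0.044 to 0.033 and *Prkaa1* from −0.090 to 0.014, and with ethanol against control diet in *Ahr* HKO for *Prkaa1* from −0.14 to 0.017 and *Prkag1* from −0.057 to 0.072. No share changed sign under the alternatives run. The causes were not tested.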
